A study of Mus musculus with 6 samples.

Results

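Genes for 10 proteins that place methyl groups on histone lysines, or that form the core of such an enzyme complex, were measured by RNA-seq in cultured mouse CD4+ T cells, with MAPK13-inhibitors in 1 group and DMSO in the other. They were chosen by gene symbol (*Ezh1*, *Ezh2*, *Eed*, *Suz12*, *Kmt2a*, *Kmt2d*, *Dot1l*, *Setd2*, *Setdb1* and *Suv39h1*), and all 10 were found among the 35602 genes of the count table and in both tables of the replicate 1 pair. Histone lysine methyltransferases take a methyl group from S-adenosylmethionine and attach it to a given lysine of a histone, and the lysine sets what the mark is known for. Trimethylation of H3K27 by Polycomb repressive complex 2 (PRC2) and of H3K9 by Suv39h1 or Setdb1 accompanies silent genes, whereas methylation of H3K4, H3K36 and H3K79 accompanies transcribed genes. In T cells, Ezh2 is known for restraining cytokine and lineage genes after activation.

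The cells were isolated from mouse spleen, with an isolation kit for CD4 T cells in the paper's methods and by sorting in the series design, stimulated with antibodies to CD3 and CD28, and collected at 72 h. The treated group received MAPK13-IN-1, an inhibitor of the kinase encoded by *Mapk13*, and the control group received its solvent DMSO, with 3 libraries in each group. The dose was 17.1 µM, which the labels of replicates 2 and 3 place after day 1 of culture, whereas the series design has inhibitor or solvent present throughout. The labels of the replicate 1 pair give no dose. Replicates 2 and 3 are labelled WT, and the paper names C57BL/6J and BALB/c mice without tying either to these cells. The age of the mice is not given in the sources used here.

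For replicates 2 and 3 of each group, reads had been counted per gene, with totals of 26874805 and 28487403 in the DMSO libraries and 33854760 and 32617702 in the MAPK13-inhibitors libraries. These counts are given as CPM, with library sizes scaled by edgeR's TMM factors and replicate 2 before replicate 3. The remaining pair carries no number in its titles and is called replicate 1 here. It was made with another library kit, and its values are read as FPKM, a length-normalized unit inferred from the values. Its depth is unknown, and it entered no test. The labels do not state separate cultures or animals, so p-values measure the spread between these libraries, which may be technical.

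The libraries held transcripts of B cells beside those of CD4+ T cells. *Cd4*, chosen after its values were seen, was at 275 and 276 CPM with DMSO and at 267 and 283 CPM with MAPK13-inhibitors. The 10 CD4+ T cell markers summed to 2205 and 2249.8 CPM with DMSO and to 1465 and 1573 CPM with MAPK13-inhibitors. Of these 10 genes 7 fell and 3 did not pass the test, and *Cd5*, of highest CPM with DMSO, went from 426 and 439 CPM to 154 and 200.1 CPM. Without *Cd5* the sums were 1779 and 1811 CPM with DMSO and 1311 and 1373 CPM with MAPK13-inhibitors. The 12 B cell markers were all detected, and they summed to 2415 and 2334 CPM with DMSO and to 3338 and 3249 CPM with MAPK13-inhibitors. Of these 12 genes 9 rose, 2 fell and 1 did not pass. Without *Cd74*, the most abundant of them, the sums were 1184 and 1159 CPM with DMSO and 1417 and 1434 CPM with MAPK13-inhibitors. Within the replicate 1 pair the B cell sum was 231 FPKM with DMSO and 254 FPKM with MAPK13-inhibitors, but 55.0 and 38.6 FPKM without *Cd74*, beside 1358 and 1287 FPKM for the CD4+ T cell markers (1096 and 1094 FPKM without *Cd5*). In bulk RNA, fewer cells of a type and less RNA per cell cannot be told apart, and the part of B cells in the values below was not tested.

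All 10 methyltransferase genes passed the filter on low counts, and all 10 differed between the groups at an adjusted p under 0.05 in edgeR's quasi-likelihood test, adjusted over 16269 genes. Of all genes tested, 63.8% passed the same threshold. With MAPK13-inhibitors 5 of the 10 were higher (*Ezh1*, *Eed*, *Kmt2a*, *Setd2* and *Setdb1*), as were 31.5% of all genes, and 5 were lower (*Ezh2*, *Suz12*, *Kmt2d*, *Dot1l* and *Suv39h1*), as were 32.3% of all genes. The CPM of the groups did not overlap for the 10 genes, nor for 83% of all genes tested (41.7% higher and 41.4% lower), so these counts did not set the 10 apart. The 10 log2 fold changes ran from −0.85 (*Suv39h1*) to 0.73 (*Setd2*), within an absolute value of 1, a size that 23.4% of all genes reached while passing the test (13% higher and 10.4% lower). Their median was −0.00021, beside 0.01 for all genes. With DMSO replicate 2 left out 7 of the 10 were called, and with DMSO replicate 3 left out 6. Scaling libraries by their totals also left 7, of which 5 were higher and 2 lower. It moved the median of all genes to 0.14 and made 58.9% of all calls higher, against 49.4%, so the even split depended on the scaling.

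**Figure D1:**
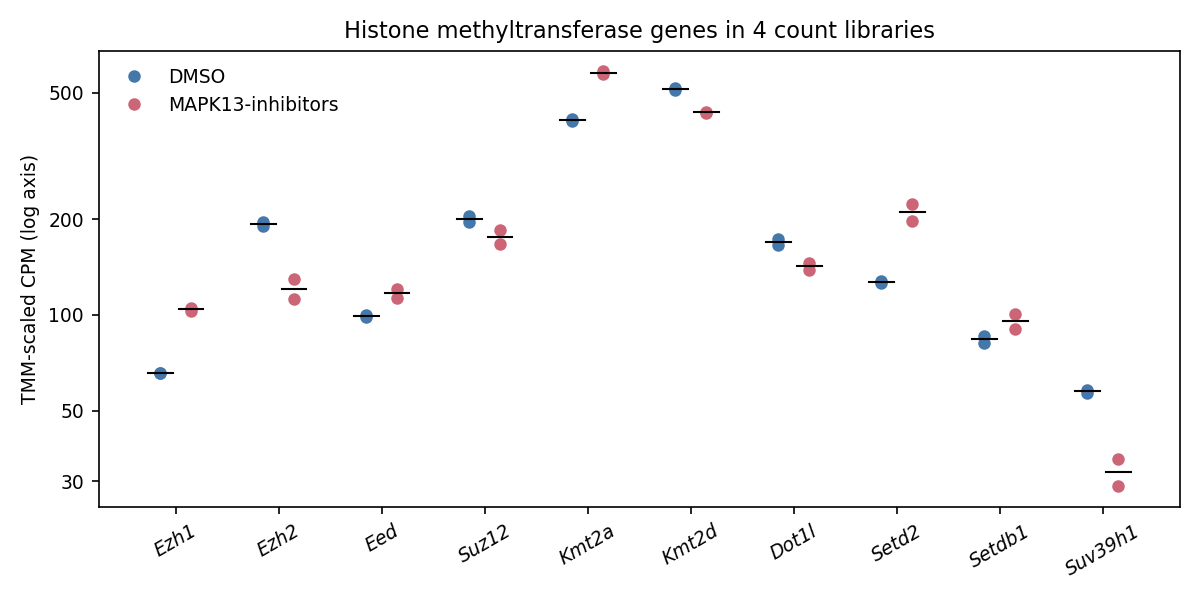
TMM-scaled CPM (log axis) of the 10 genes in the 2 DMSO and 2 MAPK13-inhibitors count libraries, with 1 point per library and bars at the group means. With MAPK13-inhibitors the points of *Ezh1*, *Kmt2a* and *Setd2* lie above those with DMSO, and the points of *Ezh2* and *Suv39h1* lie below.

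The catalytic subunits of PRC2 changed in opposite directions. *Ezh2*, which encodes the subunit typical of dividing cells, was at 196 and 190.1 CPM with DMSO and at 112 and 129 CPM with MAPK13-inhibitors. *Ezh1*, which encodes the alternative subunit typical of resting cells, was at 65.5 and 65.9 CPM with DMSO and at 103 and 105 CPM with MAPK13-inhibitors. Both MAPK13-inhibitors libraries thus held less *Ezh2* and more *Ezh1* than either DMSO library. The log2 fold change of *Ezh2* was −0.68 (standard error 0.0724, 95% interval −0.84 to −0.52, adjusted p = 1.79e-05 in edgeR). That of *Ezh1* was 0.66 (standard error 0.0620, 95% interval 0.53 to 0.80, adjusted p = 6.83e-06 in edgeR), a rise of 1.59-fold. The replicate 1 pair moved the same way, *Ezh2* from 116 FPKM with DMSO to 67.6 FPKM with MAPK13-inhibitors and *Ezh1* from 8.28 to 15.3 FPKM.

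Within a library the ratio of *Ezh2* to *Ezh1* counts does not depend on how libraries are scaled. It was 2.99 and 2.89 with DMSO and 1.09 and 1.23 with MAPK13-inhibitors. On the log2 scale the ratio was 1.55 ± 0.0349 with DMSO and 0.21 ± 0.126 with MAPK13-inhibitors (SD, n = 2 per group), a change of −1.35, or a 2.54-fold fall. A two-sided exact permutation test of the log2 ratio gave p = 0.333, the smallest value that the 6 splits of these libraries allow. The FPKM ratio of the replicate 1 pair went from 13.99 to 4.41, a 3.17-fold fall. Per kilobase of exon, *Ezh1* made up 23.1% and 23.7% of the summed *Ezh1* and *Ezh2* level with DMSO and 45.2% and 42.2% with MAPK13-inhibitors. That summed level was 38.1 and 37.3 CPM per kb with DMSO and 30.6 and 33.5 CPM per kb with MAPK13-inhibitors. The share of *Ezh1* in the summed FPKM in the replicate 1 pair went from 6.67% to 18.5%.

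**Figure D2:**
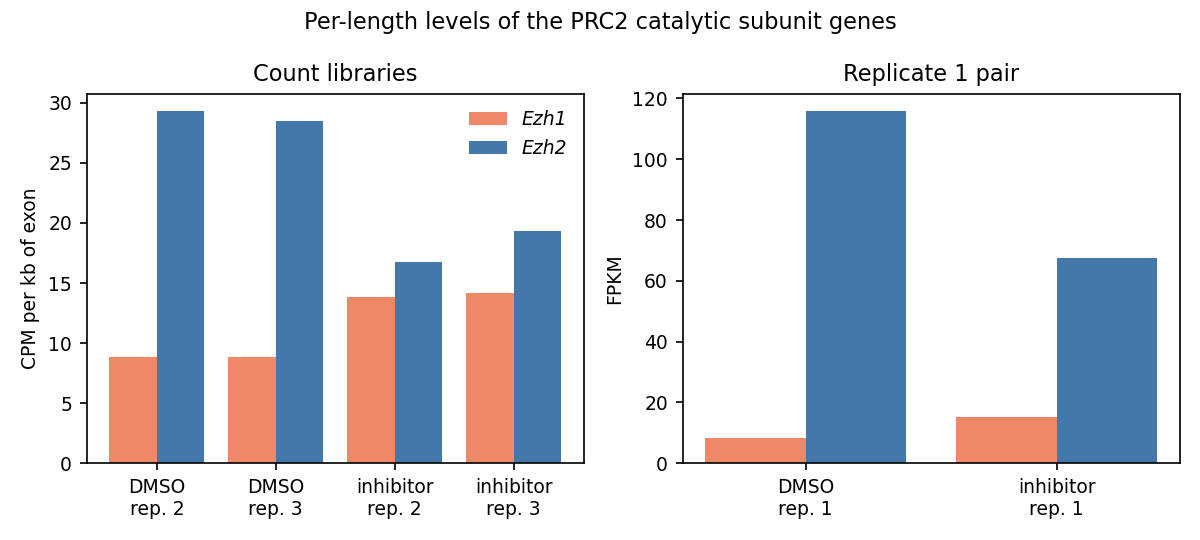
Levels of *Ezh1* and *Ezh2* per length, as CPM per kb of exon in the 4 count libraries (left) and as FPKM in the replicate 1 pair (right), with 1 bar per gene and library. *Ezh2* exceeds *Ezh1* in each library, and the gap is smaller in those treated with MAPK13-inhibitors.

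The genes of 2 other core subunits of PRC2, *Eed* and *Suz12*, differed by less. *Eed*, whose product binds trimethylated H3K27 and stimulates the enzyme, was at 99.6 and 98.5 CPM with DMSO and at 120.5 and 113 CPM with MAPK13-inhibitors (log2 fold change 0.24, standard error 0.0618, adjusted p = 0.00622 in edgeR). *Suz12*, whose product holds the complex together, was at 204 and 196 CPM with DMSO and at 167 and 184 CPM with MAPK13-inhibitors (log2 fold change −0.19, standard error 0.0639, adjusted p = 0.0246 in edgeR). Relative to either DMSO library, *Eed* was higher and *Suz12* lower in both MAPK13-inhibitors libraries. The replicate 1 pair moved the same way, from 44.1 to 60.2 FPKM for *Eed* and from 58.8 to 42.4 FPKM for *Suz12*. The call of *Suz12* in edgeR was lost with upper-quartile scaling (adjusted p = 0.154), with scaling by totals (0.396), with at least 10 counts required in every library (0.0649), and without DMSO replicate 2 (0.156) or 3 (0.0549), within a range of 2.29e-07 to 0.396 over its alternatives. The call of *Eed* in edgeR was lost without DMSO replicate 2 (adjusted p = 0.0662) or 3 (0.0848), within a range of 3.03e-06 to 0.0848.

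Of 10 genes for the remaining PRC2 subunits, core or accessory, and for proteins that bind the complex, 9 were tested, of which 3 rose, 5 fell and 1 did not pass, and their median log2 fold change was −0.21. This excess of falls depended on the scaling, with 3 higher and 4 lower under upper-quartile scaling and 3 higher and 3 lower under scaling by totals. *Ezhip*, which encodes an inhibitor of the complex, had 0 counts in the 4 libraries. *Rbbp7* and *Rbbp4*, which encode core subunits that bind histones, fell, *Rbbp7* from 237 ± 3.30 to 156 ± 5.84 CPM (log2 fold change −0.60, adjusted p = 7.21e-06 in edgeR) and *Rbbp4* from 257 ± 3.97 to 198 ± 4.44 CPM (−0.38, adjusted p = 0.00014; SD, n = 2 per group). *Aebp2* and *Jarid2* encode subunits of the same form of the complex, PRC2.2, and moved apart. *Aebp2* fell from 429 ± 11.5 to 372 ± 3.90 CPM (log2 fold change −0.21), and *Jarid2* rose from 147 ± 3.24 to 206 ± 7.57 CPM (0.49, adjusted p = 3.49e-05 in edgeR). *Lcor*, whose locus also encodes a subunit of the other form, PRC2.1, rose from 49.9 ± 1.99 to 75.5 ± 1.85 CPM (log2 fold change 0.60). Within the replicate 1 pair *Rbbp7* (131 to 76.6 FPKM), *Rbbp4* (75.0 to 46.1 FPKM) and *Jarid2* (13.5 to 22.5 FPKM) moved the same way, *Aebp2* moved the other way (74.7 to 104 FPKM), and *Lcor* was at 3.40 and 3.41 FPKM.

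Since the PRC2 catalytic genes moved apart, the windows around their starts (250 bases before to 50 after) are shown, from RefSeq on GRCm38.p6. All 10 genes had a window, and *Suv39h1* had 2. Each was searched on both strands for the E2F motifs TTTNGCGC and GCGGGAAA, which are typical of genes of the cell cycle, and for CTTTGAT, the core motif of Tcf1, the protein encoded by *Tcf7*. The *Ezh2* window lies at chr6:47594981-47595280 on the minus strand, and the start used there lies inside the gene, whose annotated end is at 47595270. The *Ezh1* window lies at chr11:101226414-101226713, also on the minus strand. Capitals mark a match, which in *Ezh2* begins 3 bases after the start, and the *Ezh1* window holds no match to the 3 motifs.
Ezh2: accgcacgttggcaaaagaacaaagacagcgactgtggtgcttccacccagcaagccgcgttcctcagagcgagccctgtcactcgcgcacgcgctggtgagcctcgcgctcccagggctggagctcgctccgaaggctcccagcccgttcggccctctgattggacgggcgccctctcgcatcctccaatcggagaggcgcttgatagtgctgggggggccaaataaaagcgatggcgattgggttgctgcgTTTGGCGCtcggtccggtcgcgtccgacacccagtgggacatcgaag
Ezh1: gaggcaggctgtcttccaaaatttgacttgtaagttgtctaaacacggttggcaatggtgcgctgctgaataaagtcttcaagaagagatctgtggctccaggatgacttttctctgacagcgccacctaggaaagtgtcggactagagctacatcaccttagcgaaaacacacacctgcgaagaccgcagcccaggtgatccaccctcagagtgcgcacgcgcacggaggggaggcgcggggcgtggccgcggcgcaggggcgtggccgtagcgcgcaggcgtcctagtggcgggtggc
Of all 32851 promoter windows in the table, 1.38% held TTTNGCGC, 1.07% held GCGGGAAA and 3.73% held CTTTGAT. Some held both E2F motifs, and 2.39% held at least 1 of them. Among the other 8 genes, GCGGGAAA stood on the minus strand at −219 from the start of *Suz12*, and CTTTGAT stood on the minus strand at −113 from the start of *Kmt2d*. The *Kmt2d* window lies at chr15:98871156-98871455 on the minus strand, wholly inside the gene, whose annotated end is at 98874077. A match describes letters in the window and does not show binding.

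Among enzymes of H3K4, *Kmt2a* rose and *Kmt2d* fell. *Kmt2a*, which encodes the MLL1 methyltransferase known for keeping developmental genes active, was at 412 and 408 CPM with DMSO and at 583 and 574 CPM with MAPK13-inhibitors. *Kmt2d*, which encodes the MLL4 methyltransferase of enhancers, was at 509 and 518 CPM with DMSO and at 436 and 433 CPM with MAPK13-inhibitors. The spread within each group was small beside these differences. The log2 fold change was 0.50 for *Kmt2a* (standard error 0.0485, adjusted p = 9.56e-06 in edgeR) and −0.24 for *Kmt2d* (standard error 0.0486, adjusted p = 0.00135 in edgeR). The ratio of *Kmt2a* to *Kmt2d* counts was 0.809 and 0.788 with DMSO and 1.34 and 1.33 with MAPK13-inhibitors. The call of *Kmt2d* in edgeR was lost with libraries scaled by totals (log2 fold change −0.12, adjusted p = 0.0528), within a range of 3.22e-08 to 0.0528 over its alternatives. Values in the replicate 1 pair were 28.5 and 30.8 FPKM for *Kmt2a*, and 18.6 and 20.6 FPKM for *Kmt2d*, the opposite direction to the counts.

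Of the 4 further genes for H3K4 enzymes of the KMT2 and SETD1 kind, *Setd1b* was lower, at 43.3 ± 0.509 and 28.9 ± 1.39 CPM (mean ± SD of 2 libraries, log2 fold change −0.59, adjusted p = 0.000115 in edgeR) and *Kmt2b* fell from 189 ± 3.35 to 165 ± 6.57 CPM (−0.20, adjusted p = 0.0111). *Kmt2c*, whose product is the closest relative of Kmt2d, had a log2 fold change of 0.08 and *Setd1a* of 0.08, and neither passed (adjusted p = 0.235 and 0.231 in edgeR), although both did with upper-quartile scaling or scaling by totals (adjusted p from 0.00809 to 0.0293, within ranges of 0.00809 to 0.633 for *Kmt2c* and 0.00867 to 0.685 for *Setd1a*). Both fallen genes were higher with MAPK13-inhibitors in the replicate 1 pair, *Setd1b* at 6.11 and 6.52 FPKM and *Kmt2b* at 15.7 and 20.7 FPKM. In edgeR *Kmt2b* lost its call with the same scalings (adjusted p = 0.0904 and 0.267) and without DMSO replicate 3 (0.115), within a range of 2.58e-06 to 0.267. Of 13 genes for partner subunits of these complexes, 7 fell, 2 rose and 4 did not pass, with a median log2 fold change of −0.21. Leaving out either DMSO library left 5 of them called, all lower. *Psip1*, whose product tethers the Kmt2a complex to chromatin, fell from 128 ± 0.552 to 75.6 ± 1.42 CPM (log2 fold change −0.76, adjusted p = 2.17e-06 in edgeR). *Hcfc1* fell from 348 ± 6.84 to 237 ± 7.90 CPM (−0.55) and *Pagr1a*, whose product is a partner of Kmt2c and Kmt2d, from 50.4 ± 0.0792 to 30.6 ± 3.06 CPM (−0.72), and *Wdr82* fell from 124 ± 1.44 to 108 ± 3.16 CPM (−0.21). All 4 were lower with MAPK13-inhibitors in the replicate 1 pair, *Psip1* from 50.7 to 28.97 FPKM.

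*Dot1l*, which encodes the methyltransferase of H3K79, was at 166 and 174 CPM with DMSO and at 139 and 146 CPM with MAPK13-inhibitors. Both values with MAPK13-inhibitors were below both values with DMSO, and edgeR gave −0.26 as log2 fold change (adjusted p = 0.00321, standard error 0.0592). In edgeR the call was lost with scaling by totals (adjusted p = 0.0689) and without DMSO replicate 3 (0.0523), within a range of 2.53e-08 to 0.0689. Values in the replicate 1 pair were 18.4 and 21.6 FPKM, again opposite to the counts. Of 10 genes for partners of Dot1l and for other factors of transcript elongation, 4 rose, 2 fell and 4 did not pass. *Eaf1* rose from 83.4 ± 2.15 to 188 ± 17.2 CPM (log2 fold change 1.17, adjusted p = 4.38e-07 in edgeR; SD, n = 2 per group), whereas *Ell2*, which encodes an elongation factor that binds it, fell from 47.1 ± 4.31 to 21.9 ± 0.940 CPM (−1.11, adjusted p = 3.31e-06). *Mllt1*, which encodes a reader of acetylated and crotonylated histones, fell from 119 ± 0.988 to 80.6 ± 4.66 CPM (log2 fold change −0.56), and *Aff3* rose from 120.2 ± 7.84 to 182 ± 12.2 CPM (0.60). *Mllt6* (log2 fold change 0.08) and *Aff1* (−0.06) did not pass. *Eaf1* had 16.8 and 22.3 FPKM in the replicate 1 pair and *Ell2* 15.7 and 37.9 FPKM, the latter opposite to the counts, while *Mllt1* (20.9 and 20.5 FPKM) and *Aff3* (11.3 and 11.4 FPKM) hardly differed.

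*Setd2*, which encodes the enzyme of H3K36 trimethylation in transcribed gene bodies, had the largest rise of the 10 genes in the count libraries, except without MAPK13-inhibitors replicate 2, where its log2 fold change was 0.64 and that of *Ezh1* 0.68. It was at 126 and 128 CPM with DMSO and at 223 and 197 CPM with MAPK13-inhibitors. The groups lay well apart, while the MAPK13-inhibitors libraries differed from each other by more than the DMSO libraries did. Its log2 fold change of 0.73 (95% interval 0.58 to 0.88, standard error 0.0684, adjusted p = 7.18e-06 in edgeR) is a rise of 1.66-fold. Less of a difference was seen in the replicate 1 pair, from 14.8 to 17.1 FPKM (log2 ratio 0.20). The enzymes that place fewer methyl groups on H3K36 moved in both directions. *Ash1l* rose from 113 ± 0.125 to 219 ± 7.04 CPM (log2 fold change 0.95, adjusted p = 3.86e-07 in edgeR; SD, n = 2 per group). In the replicate 1 pair *Ash1l* hardly differed, at 9.49 FPKM with DMSO and 10.2 FPKM with MAPK13-inhibitors. *Nsd1* fell from 222 ± 4.45 to 153 ± 8.86 CPM (−0.54, adjusted p = 2.49e-05 in edgeR), *Nsd2* from 165 ± 2.57 to 112 ± 10.5 CPM (−0.56, adjusted p = 5.57e-05), and *Nsd3* from 257 ± 1.53 to 216 ± 4.68 CPM (−0.25, adjusted p = 0.00193, or 0.0583 with scaling by totals, the highest of its alternatives, which reached down to 1.24e-08). Of these 5 H3K36 genes 2 rose and 3 fell, and for *Nsd3* the replicate 1 pair moved the other way, from 37.01 to 46.2 FPKM. The ratio of *Setd2* to *Nsd1* counts was 0.573 and 0.567 with DMSO and 1.52 and 1.24 with MAPK13-inhibitors.

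*Suv39h1*, which encodes the enzyme of H3K9 trimethylation at pericentric heterochromatin, had the largest fall of the 10 genes. It was at 58.2 and 57.0 CPM with DMSO and at 28.9 and 35.2 CPM with MAPK13-inhibitors. The DMSO libraries were nearly equal, and both MAPK13-inhibitors libraries were far below them. Its log2 fold change of −0.85 (95% interval −1.06 to −0.63, standard error 0.0960, adjusted p = 2.76e-05 in edgeR) stood beside 27.7 and 14.9 FPKM in the replicate 1 pair. *Setdb1*, which encodes the H3K9 enzyme recruited to retroelements by Trim28, was at 86.1 and 81.8 CPM with DMSO and at 90.6 and 101 CPM with MAPK13-inhibitors. Its lower MAPK13-inhibitors value was close to its higher DMSO value, and edgeR gave 0.19 as log2 fold change (adjusted p = 0.0395, standard error 0.0713). The call of *Setdb1* was lost with DESeq2 (adjusted p = 0.0662), and in edgeR without DMSO replicate 2 (0.11) or 3 (0.303) or MAPK13-inhibitors replicate 3 (0.123), within a range of 3.25e-05 to 0.303. Its values in the replicate 1 pair were 14.97 and 15.4 FPKM.

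*Suv39h2*, the paralog of *Suv39h1*, was at 9.50 ± 1.21 CPM with DMSO and 10.7 ± 0.138 CPM with MAPK13-inhibitors (SD, n = 2 per group) and did not pass (adjusted p = 0.269 in edgeR), nor did *Setdb2* (10.3 ± 0.255 and 7.73 ± 2.66 CPM, adjusted p = 0.1). *Ehmt1* and *Ehmt2*, which encode the partners of the H3K9 dimethylation enzyme, moved apart, *Ehmt1* rising (log2 fold change 0.25) and *Ehmt2* falling (−0.21), whereas both were lower in the replicate 1 pair (10.7 to 9.35 FPKM and 35.5 to 33.8 FPKM). Both lost the call in edgeR without DMSO replicate 3 (adjusted p = 0.0987 and 0.116), *Ehmt1* also without DMSO replicate 2 (0.0687) and *Ehmt2* also with upper-quartile scaling (0.0773) and scaling by totals (0.227). Their adjusted p ranged from 3.68e-05 to 0.0987 and from 1.27e-07 to 0.227 over the alternatives. *Setdb2* was called in edgeR blocked by replicate (adjusted p = 0.0106), with no filter on low counts (0.0423) and without MAPK13-inhibitors replicate 2 (2.05e-06), within a range of 2.05e-06 to 0.54. Of 12 genes for H3K9 partners and readers, 5 fell, 3 rose and 4 did not pass. *Morc2a* (73.9 ± 0.0780 to 41.1 ± 1.06 CPM) and *Tasor* (45.0 ± 0.255 to 22.4 ± 2.32 CPM), whose products act with Setdb1 in HUSH silencing, both fell (adjusted p = 2.75e-06 and 6.56e-06 in edgeR). *Trim28* rose from 307 ± 0.803 to 348 ± 2.20 CPM (log2 fold change 0.18, adjusted p = 0.0083 in edgeR), but the replicate 1 pair moved the other way, from 70.01 to 56.7 FPKM. *Zfp644*, for a partner of the Ehmt enzymes, rose from 22.3 ± 0.490 to 42.3 ± 3.73 CPM (0.93). *Uhrf1*, which reads H3K9 methylation during DNA replication, fell from 293 ± 13.9 to 179 ± 42.3 CPM (−0.71) and the heterochromatin protein gene *Cbx5* from 201 ± 4.07 to 143 ± 15.3 CPM (−0.49).

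Across 26 further genes of histone lysine methyltransferases and their relatives, 12 fell, 6 rose and 8 did not pass, with a median log2 fold change of −0.20. The excess of falls depended on the scaling, with 10 lower and 9 higher under upper-quartile scaling and 8 lower and 9 higher under scaling by totals. The 3 genes for H4K20 enzymes all fell in the count libraries. *Kmt5c*, which encodes the enzyme of H4K20 trimethylation, went from 55.4 and 52.9 CPM with DMSO to 13.6 and 17.4 CPM with MAPK13-inhibitors (log2 fold change −1.81, standard error 0.112, adjusted p = 4.63e-07 in edgeR). *Kmt5a*, which encodes the monomethylase, fell from 73.8 ± 0.481 to 52.7 ± 1.13 CPM (−0.48) and *Kmt5b* from 92.7 ± 0.411 to 69.9 ± 3.58 CPM (−0.41; mean ± SD of 2 libraries). *Kmt5c* had 16.6 and 16.2 FPKM in the replicate 1 pair, where a fall of that size was not seen. In that pair *Kmt5a* was lower as in the counts, and *Kmt5b* was higher, opposite to the counts. The rises in the count libraries were led by *Prdm2* (108 ± 3.22 to 214 ± 34.4 CPM, log2 fold change 0.99), *Ash1l* and *Setd5* (299.5 ± 6.09 to 481 ± 17.3 CPM, 0.68). In the replicate 1 pair *Ash1l* hardly differed, and *Setd5* moved slightly the other way, from 24.3 to 23.9 FPKM. After *Kmt5c* the largest fall among genes that passed was that of *Smyd5* (log2 fold change −0.73, adjusted p = 4.8e-05 in edgeR). Without MAPK13-inhibitors replicate 2, however, *Setdb2* fell by more (−0.81, against −0.77 for *Smyd5*). Without MAPK13-inhibitors replicate 3, *Prdm9* fell by more (−0.76, against −0.70 for *Smyd5*). Without DMSO replicate 3 the 2 genes were about equal (−0.629 and −0.628). With all count libraries *Smyd4* and *Prdm9* fell by less, *Smyd3* rose, and *Smyd2*, *Setd3* and *Setmar* did not pass. The fall of *Smyd4* was not called with scaling by totals, with DESeq2 or without DMSO replicate 3, and that of *Prdm9* not with DESeq2. *Smyd2* was called lower without MAPK13-inhibitors replicate 3, and *Setd3* was called higher there, with upper-quartile scaling, with scaling by totals and with at least 10 counts in every library. *Kmt2e*, a relative of the KMT2 genes whose product has not been settled as an enzyme, rose from 198 ± 3.77 to 263 ± 4.50 CPM (0.41, adjusted p = 7.63e-05 in edgeR).

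**Figure D3:**
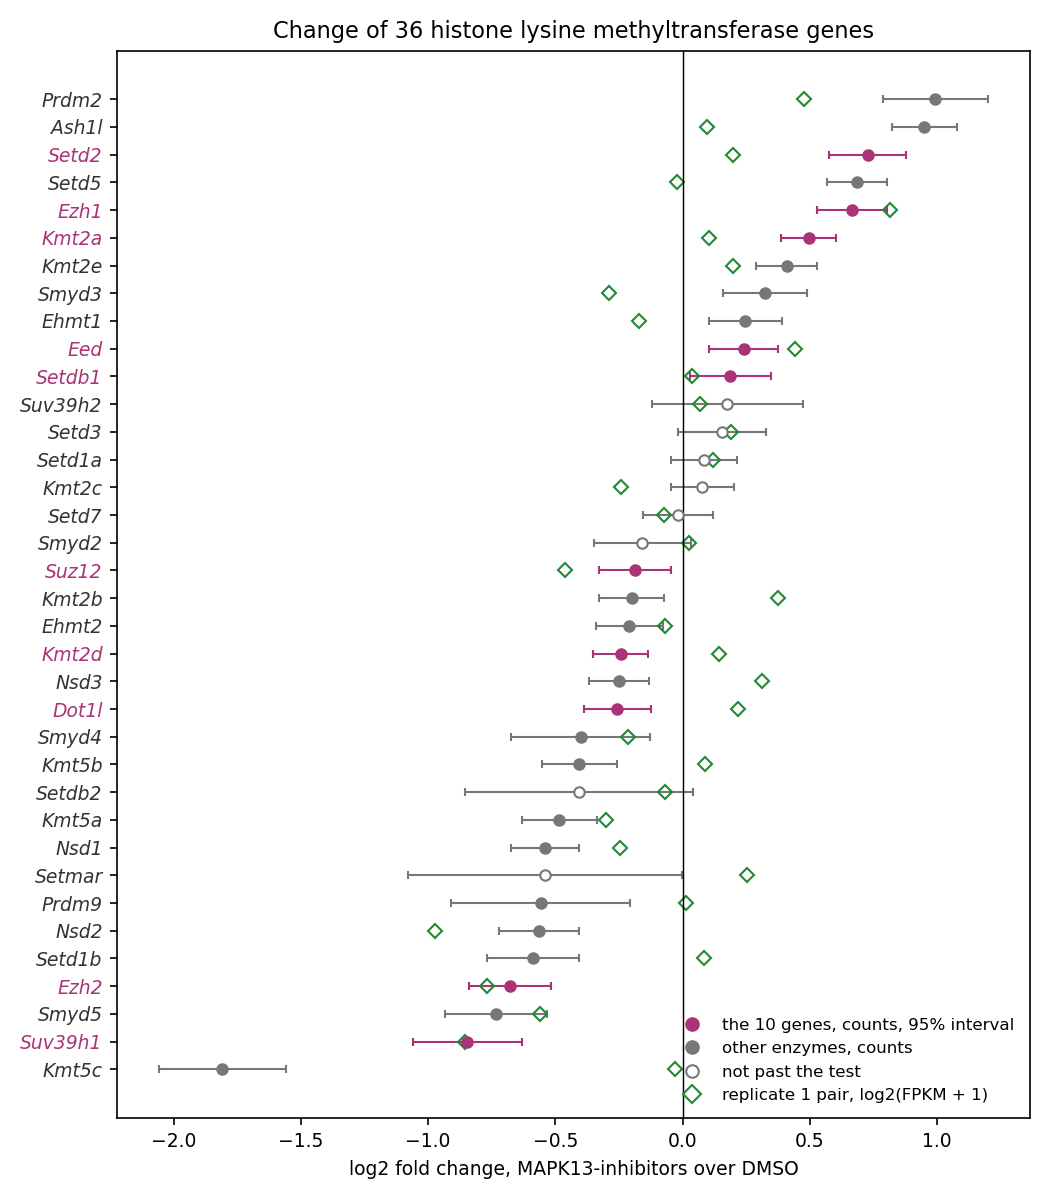
Log2 fold change (MAPK13-inhibitors over DMSO) of the 10 genes and 26 further methyltransferase genes in the count libraries, with 95% intervals, and the log2(FPKM + 1) ratio of the replicate 1 pair as diamonds. *Ezh1*, *Ezh2* and *Suv39h1* have a diamond close to or beyond their count estimate, whereas *Kmt2d* and *Dot1l* have theirs on the other side of 0.

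Levels were set in order within each kind of library, per kilobase of merged exon. With DMSO in the count libraries *Suz12* was highest at a mean of 40.5 CPM per kb, followed by *Ezh2* (28.9), *Eed* (25.9), *Kmt2d* (25.8), *Kmt2a* (24.6), *Dot1l* (19.5), *Setdb1* (12.2), *Setd2* (11.8), *Suv39h1* (10.9) and *Ezh1* (8.83). *Eed* at 26.0 and 25.7 and *Kmt2d* at 25.6 and 26.0 CPM per kb overlapped, so their order was not resolved. With MAPK13-inhibitors the means were 35.5 for *Suz12*, 34.7 for *Kmt2a*, 30.6 for *Eed*, 21.8 for *Kmt2d*, 19.5 for *Setd2*, 18.1 for *Ezh2*, 16.3 for *Dot1l*, 13.997 for *Ezh1*, 13.95 for *Setdb1* and 6.08 CPM per kb for *Suv39h1*. *Ezh2* thus went from rank 2 to rank 6 and *Kmt2a* from rank 5 to rank 2. *Suz12* and *Kmt2a* overlapped with MAPK13-inhibitors, as did *Ezh1* and *Setdb1*, and *Setd2* and *Ezh2*, so their order was not resolved. In the replicate 1 pair *Ezh2* had the highest FPKM of the 10 genes in both libraries and *Ezh1* the lowest with DMSO.

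The replicate 1 pair moved in the direction called in the count libraries for 8 of the 10 genes. Over all called genes that the pair also lists, 6714 of 10193 did (65.9%). In that pair 7 of the 10 genes were higher with MAPK13-inhibitors and 3 lower, where 56.5% of the genes with at least 1 FPKM were higher and 43.5% lower. Past 1.5-fold on the log2(FPKM + 1) scale were *Ezh1* (log2 ratio 0.81), *Ezh2* (−0.77) and *Suv39h1* (−0.85), where 24.5% of the 11510 genes with at least 1 FPKM in either library were past it (17% higher and 7.53% lower). Of the 18 further methyltransferase genes called in the counts, 10 moved the same way in that pair and 8 the opposite way (*Kmt2b*, *Setd1b*, *Nsd3*, *Smyd3*, *Setd5*, *Ehmt1*, *Prdm9* and *Kmt5b*). The genes are long, and length moved weakly with the change. The longest 10% of 14473 genes with a known length, at 9.501 kb of exon or more, had a median log2 fold change of 0.11 against −0.03 for the rest, and 3 of the 10 genes (*Kmt2a*, *Kmt2d* and *Setd2*) belong to it. Of these 3, 2 rose and *Kmt2d* fell, and the part of length in the result was not tested. Exons of *Suv39h1* overlap an annotated gene on the opposite strand over 14.6% of their bases and those of *Eed* over 6.82%. The count libraries are not stated to mark strand, so reads from such partners could not be separated.

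Genes of cell division fell in the count libraries, as did *Ezh2*, *Suz12*, *Kmt2d*, *Dot1l* and *Suv39h1*. Of 24 such genes 20 fell, 1 rose and 3 did not pass, with a median log2 fold change of −0.74, and in the replicate 1 pair all 24 were lower (median log2 ratio −0.66). Of the fallen methyltransferase genes, *Ezh2*, *Suz12* and *Suv39h1* were lower in that pair too, whereas *Kmt2d* and *Dot1l* were higher. The summed level of the 24 genes of cell division was 3509 and 3448 CPM with DMSO and 1933 and 2578 CPM with MAPK13-inhibitors. *Pcna* fell from 360.0 ± 12.5 to 175 ± 29.4 CPM (log2 fold change −1.04), *Top2a* from 482 ± 9.74 to 271 ± 68.8 CPM (−0.83), *Rrm2* from 165 ± 1.06 to 66.9 ± 17.9 CPM (−1.30) and *Mcm2* from 147 ± 1.96 to 70.3 ± 14.5 CPM (−1.07; mean ± SD of 2 libraries), whereas *Mki67*, at 417 and 417 CPM with DMSO and 303 and 445 CPM with MAPK13-inhibitors, did not pass (adjusted p = 0.317 in edgeR). MAPK13-inhibitors replicate 2 was below replicate 3 in this sum. Of the 10 methyltransferase genes it was below replicate 3 in 6, the risen *Ezh1* and *Setdb1* and the fallen *Ezh2*, *Suz12*, *Dot1l* and *Suv39h1*. It was above replicate 3 in 4, the risen *Eed*, *Kmt2a* and *Setd2* and the fallen *Kmt2d*. Of 20 genes of cell division with a promoter window, 7 (35%) held at least 1 of the E2F motifs. So did 2 of the 10 methyltransferase genes and 2.39% of all promoter windows. The part of cell division in the changes of the methyltransferase genes was not tested.

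Genes for the opposing enzymes, the histone lysine demethylases, and for relatives of these enzymes moved in both directions, with 9 rising, 8 falling and 5 not passing out of 22. With upper-quartile scaling 9 were higher and 7 lower, and with scaling by totals 9 were higher and 5 lower. *Kdm2a*, which encodes an H3K36 demethylase, rose from 173 ± 2.76 to 335 ± 2.78 CPM (log2 fold change 0.96, adjusted p = 2.26e-07 in edgeR; SD, n = 2 per group), and *Kdm3a*, for an H3K9 demethylase, rose from 241 ± 19.9 to 402 ± 25.1 CPM (0.74). *Kdm6b*, which encodes an H3K27 demethylase, fell from 250.9 ± 4.93 to 136 ± 8.11 CPM (−0.88, adjusted p = 9.01e-07 in edgeR) and *Riox2* from 64.5 ± 2.38 to 25.7 ± 0.687 CPM (−1.33). *Ezh2* and *Kdm6b*, which encode a writer and an eraser of the same mark, were thus both lower in the count libraries. *Kdm5c*, for an H3K4 demethylase, had a log2 fold change of −0.00057 and did not pass. The falls and rises were not all seen in the replicate 1 pair, where *Kdm2a* was at 15.7 and 21.1 FPKM but *Kdm3a* at 19.5 and 19.2 FPKM, *Kdm6b* at 10.3 and 10.5 FPKM and *Riox2* at 42.7 and 41.1 FPKM.

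Genes that PRC2 is known to restrain in T cells were not higher as a group in the count libraries. Of 14 such genes 5 fell, 2 rose and 7 did not pass, with a median log2 fold change of −0.35. *Il13*, of smallest p in this list, went from 30.2 ± 2.44 to 1.23 ± 0.305 CPM (log2 fold change −4.62, adjusted p = 1.87e-08 in edgeR). *Il4* was at 9.31 and 8.42 CPM with DMSO and at 0.310 and 0.354 CPM with MAPK13-inhibitors (log2 fold change −4.72, adjusted p = 1.46e-07 in edgeR), and *Gata3*, which encodes the factor that drives its expression, fell from 71.2 ± 4.90 to 33.4 ± 1.55 CPM (−1.09; mean ± SD of 2 libraries). *Id2* rose from 179 ± 0.307 to 239 ± 8.51 CPM (log2 fold change 0.42). *Tbx21* (81.1 ± 3.53 and 73.3 ± 1.75 CPM) and the cell cycle inhibitor gene *Cdkn1a* (666 ± 18.1 and 591 ± 70.9 CPM) did not pass. In the replicate 1 pair 10 of the 13 genes of this list with at least 1 FPKM in either library were higher with MAPK13-inhibitors, and their median log2 ratio was 0.99. *Il13* was at 16.5 and 39.9 FPKM there, opposite to the counts, and *Cdkn1a* at 117 and 358 FPKM, whereas *Il4* was lower as in the counts (28.9 and 13.1 FPKM). The difference between the count libraries and the replicate 1 pair was not tested.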

How the data were processed

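RNA-seq libraries were grouped by the sample labels. For replicates 2 and 3 the authors deposited raw counts per gene, and the submitters' processing notes name fastp 0.21.0, HISAT2 2.1.0, StringTie 2.1.5, DESeq2 1.30.1 and mm10, without roles. For the replicate 1 pair the authors deposited values over 34714 genes that are taken as FPKM, normalized for length and depth before deposit, with FastQC, HISAT2 and GRCm38 named and the counter and annotation not given in the sources used here. The unit was inferred because, over 10460 genes, the value per read counted fell with exon length (Spearman −0.55 across genes, which are not independent replicates).

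The test of the counts was run with edgeR 4.0.16 under R 4.3.3 (filterByExpr at a minimum count of 10 and total of 15, TMM factors of 0.960, 0.955, 1.05 and 1.04, quasi-likelihood test of 2 against 2 libraries without covariates, Benjamini-Hochberg adjustment, called at 0.05). Where 0 was counted, up to 3 reads may be missed, or 0.0845 to 0.116 CPM, by counting error alone. Replicates differed by more than sampling noise (chi-square per gene 2.98 with DMSO and 9.65 with MAPK13-inhibitors). FPKM ratios used a pseudocount of 1, which understates the change of low genes. Exon lengths came from GENCODE vM21, which may differ from the annotation used for counting. Motifs were exact matches. The alternatives were RLE, upper-quartile and total scaling, other filters, DESeq2 1.42.0, a replicate block, each count library left out in turn and a pseudocount of 0.1. The scripts were tested on simulated data.

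The members and lists were chosen with earlier results of these data known. Named were the 10 genes, the 26 further methyltransferase genes, the 3 genes of smallest p and the 3 of highest CPM in each list outside the cell type markers, and the marker of highest CPM over the 4 libraries of each cell type.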

Additional observations from a re-analysis of the deposited data

Results flagged for a closer look

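For *Kmt2d* and *Dot1l* the replicate 1 pair moved against the count libraries, which does not set them apart, since it moved with the counts for only 65.9% of all called genes. The log2 ratio of that pair was 0.14 for *Kmt2d* and 0.22 for *Dot1l*, higher with MAPK13-inhibitors, whereas both MAPK13-inhibitors count libraries were below both DMSO count libraries for either gene. The difference was not tested, since the pair holds 1 library per group.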

How the results depend on the processing

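*Ezh1*, *Ezh2*, *Kmt2a*, *Setd2* and *Suv39h1* were called in the same direction under each of the 11 alternatives. *Eed*, *Suz12*, *Kmt2d*, *Dot1l* and *Setdb1* kept their direction and lost the call under some, as given beside their values, and the cause was not tested. Of the 10 genes, 9 were called with upper-quartile scaling, 9 with at least 10 counts in every library, 9 with DESeq2 and 7 with total scaling. With each library left out in turn, in fits where the lone library is assumed to vary like the other group, 6 to 10 of them were called, 5 to 10 of the 13 H3K4 partner genes, 14 to 20 of the 26 further methyltransferase genes and 8731 to 10943 of all genes. The change of log2(*Ezh2*/*Ezh1*) ranged from −1.43 to −1.26. *Setd7*, not called at −0.02, changed sign with upper-quartile scaling (0.0632), total scaling (0.11), at least 10 counts in every library (0.0274) and without MAPK13-inhibitors replicate 3 (0.0172), and was −0.0605 without replicate 2 of that group. Requiring 10 counts in every library left 2566 genes past a log2 fold change of 1, against 3799. With the replicate number as a block 10 of the 10 genes and 10645 genes in all were called, and the numbers did not pair the libraries (correlation across genes of the replicate differences 0.005). A pseudocount of 0.1 moved the replicate 1 ratio of *Ezh1* from 0.81 to 0.88 and turned no sign among the 10 genes.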

Other observations

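Polycomb repressive complex 1 reads the mark that PRC2 places and ubiquitinates histone H2A. Of 18 genes for its subunits 9 fell, 5 rose and 4 did not pass, with a median log2 fold change of −0.17. *Cbx6*, for a subunit of the kind that reads H3K27 trimethylation, fell from 137 and 135 CPM with DMSO to 51.5 and 67.1 CPM with MAPK13-inhibitors (log2 fold change −1.20, adjusted p = 3.93e-06 in edgeR). *Rybp*, for the subunit that takes the place of Cbx proteins in variant complexes, rose from 33.5 and 31.4 CPM to 75.7 and 70.8 CPM (1.17, adjusted p = 6.51e-07 in edgeR), and *Pcgf3*, also of variant complexes, from 46.5 and 42.2 CPM to 80.2 and 82.9 CPM (0.88). *Pcgf5* rose as well (log2 fold change 0.39), whereas *Phc2* (−0.12) and *Phc3* (−0.04) did not pass. The replicate 1 pair moved the same way for the first 3 genes, *Cbx6* from 21.5 to 14.7 FPKM, *Rybp* from 4.31 to 9.69 FPKM and *Pcgf3* from 3.80 to 6.90 FPKM, but the other way for *Pcgf5*, from 11.9 to 10.4 FPKM.

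Of 10 genes that make or recycle S-adenosylmethionine, the methyl donor of these enzymes, 4 fell, 2 rose and 4 did not pass. *Mat2a*, for the enzyme that makes it, fell from 150.1 and 156 CPM with DMSO to 92.3 and 81.8 CPM with MAPK13-inhibitors (log2 fold change −0.81, adjusted p = 4.08e-06 in edgeR), and *Ahcy*, for the enzyme that clears its product, fell from 356 and 370.2 CPM to 220.5 and 255 CPM (−0.61, adjusted p = 2.97e-05 in edgeR). *Ahcyl1* fell too (log2 fold change −0.43). The 3 genes were lower in the replicate 1 pair as well, *Ahcyl1* at 30.8 and 26.3 FPKM, *Mat2a* at 83.3 and 56.7 FPKM and *Ahcy* at 86.0 and 64.4 FPKM.

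Markers of other cell types that a spleen preparation can hold were low. The 10 macrophage markers summed to 13.7 and 12.02 CPM with DMSO and 42.9 and 35.5 CPM with MAPK13-inhibitors, most of it *Cd68*. The 8 erythroid markers summed to 10.5 and 10.2 CPM and to 91.0 and 66.3 CPM, with *Hbb-bs* the highest over the 4 libraries, and the 6 dendritic cell markers to 44.9 and 45.6 CPM and to 61.0 and 52.8 CPM. Of 5 dendritic cell markers tested 4 rose, among them *Zbtb46*, the highest over the 4 libraries, and 1 fell. The latter was *Batf3*, chosen after its values were seen, which went from 25.9 to 2.84 CPM (log2 fold change −3.19). Without *Zbtb46* the sum was 29.6 and 30.5 CPM with DMSO and 15.2 and 15.8 CPM with MAPK13-inhibitors. The 4 dendritic cell markers with at least 1 FPKM in the replicate 1 pair, *Batf3* included, were all higher there. The CD8 T cell markers *Cd8a* and *Cd8b1* summed to 11.7 and 10.9 CPM and to 5.49 and 7.85 CPM, the 6 NK cell markers, led by *Eomes*, summed to at most 2.65 CPM, and the 8 neutrophil markers, with *Mpo* highest over the 4 libraries, to at most 1.18 CPM, with *S100a9* at 0 counts. In the replicate 1 pair the CD8 T cell sum was higher with MAPK13-inhibitors (3.49 and 8.39 FPKM), as was the NK cell sum (0.930 and 5.23 FPKM). The Y-linked genes *Kdm5d*, *Uty*, *Ddx3y* and *Eif2s3y* were detected in the 4 count libraries, *Kdm5d*, an H3K4 demethylase gene, at 46.6 and 42.9 CPM with DMSO and 54.3 and 49.9 CPM with MAPK13-inhibitors. *Xist* was at 0.155 to 0.423 CPM, and *Mapk13*, the gene of the kinase, was at 3.06 and 2.72 CPM with DMSO and 0.592 and 1.51 CPM with MAPK13-inhibitors, but at 0.191 and 3.28 FPKM in the replicate 1 pair.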
